A study of Rattus norvegicus with 4 samples.

Results

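The genes described here are transcription factors and cofactors that build and maintain heart muscle. They were taken by exact gene symbol from a list of 34 names, and 33 of these were found among the 22250 genes of the count files. Mrtfb did not match any symbol and is not analysed here. Of the 33 genes, 32 had enough footprints to be tested, and Isl1 did not.

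Ribosome footprints, the mRNA fragments covered by translating ribosomes, were counted in ventricular cardiomyocytes from hearts of Wistar rats aged 1 to 2 days. The control group received a control siRNA and the other group an siRNA against Cpeb4 (siCpeb4), with silencing for 72 h and 2 libraries per group. Cpeb4 encodes a cytoplasmic polyadenylation element binding protein, which regulates poly(A) tails and translation of its target mRNAs. The growth protocol of all 4 samples also gives treatment with the mTOR inhibitor Torin1 at 250 nM for 24 h, without saying which cells received it. The cells came from trypsin digestion and a Percoll gradient, which can leave other heart cells in the culture. Whether replicates were separate cultures is not stated, so the p-values measure the spread between these libraries, which may be technical.

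Cardiac gene expression rests on a small set of factors that bind DNA together. GATA4, NKX2-5, TBX5, MEF2 and HAND proteins specify the heart and activate one another and the contractile genes. SRF, with its coactivators myocardin and MRTF, ties muscle genes to actin dynamics. PPARα, the estrogen-related receptors and PGC-1α control mitochondrial and fatty acid genes, and TEAD factors carry the signal of the Hippo pathway.

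Total counts in genes lay between 3554011 and 5910911 per library. The silencing was visible in the target itself: 351 and 253 Cpeb4 footprints were counted under control siRNA, 40 and 59 under siCpeb4. In the fit Cpeb4 fell by 86.2% (edgeR adjusted p = 1.57e-09). Cardiomyocyte markers were abundant, with a summed level between 73330 and 83219 CPM (counts scaled to a common total of gene counts per library) over 9 genes. The 10 fibroblast markers summed to 13170 and 12143 CPM in control and to 9794 and 9258 CPM in siCpeb4 libraries. Col1a2 among them was listed at 0 in all 4. Most of this sum was Col3a1 and Col1a1, the latter with 8586 and 7867 CPM in control and 6072 and 5374 CPM in siCpeb4 libraries. Col1a1, Col3a1, Pdgfra and Ddr2 were lower without overlap, while Dcn, Lum, Postn, Tcf21 and Thy1 overlapped between groups. In this bulk measurement, fewer cells of a type and less mRNA or translation per cell cannot be told apart. The 7 epicardial markers were also lower without overlap, with sums of 367 and 385 CPM in control and 335 and 300.1 CPM in siCpeb4 libraries. The sum of the 8 smooth muscle and pericyte markers was higher without overlap (5830 and 5882 against 6114 and 6502 CPM). Most of it was the actin gene Acta2, with 3990 and 4051 CPM in control and 4373 and 4797 CPM in siCpeb4 libraries. Tagln and Cspg4 of this list were lower without overlap. Of its 7 tested genes, 5 had positive and 2 negative log2 fold changes, and 0 were called in edgeR. The sum of the 7 pacemaker markers was also higher without overlap (127 and 139 against 148 and 145 CPM). Its largest part was Cacna1g, with 68.7 and 70.1 CPM in control and 80.6 and 82.9 CPM in siCpeb4 libraries. Hcn4 of this list was lower without overlap, as was Shox2 with 3 counts in all. Of the 4 tested pacemaker markers, 2 had positive and 2 negative log2 fold changes, and 0 were called in edgeR. The 7 endothelial and 6 leukocyte markers overlapped between groups, at 134 to 164 and 411 to 649 CPM. No gene of these 5 lists was at 0 in all 4 libraries.

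Promoter elements of Srf and Mef2a are shown because they are of the kind that the products of these same genes bind. RefSeq promoter windows (assembly GRCr8, 250 bases before to 50 after a gene's start) matched 22 of the 33 genes in 25 windows. The Srf window held a pair of CArG boxes, the element bound by SRF. At least 1 such box occurred in 1.64% of all 33469 windows, and the share with a pair was not counted. The Mef2a window held the MEF2 core TAAAAATA, found in 2.69% of all windows. Capitals mark the element and lower case the flanking bases, 5′ to 3′ on the gene's strand:
Srf CArG box from 81 to 72 bases before the start, chr9:21923990-21924009, plus strand: gctcgCCATATAAGGagcgg
Srf CArG box from 61 to 52 bases before the start, chr9:21924010-21924029, plus strand: cctcgCCATAAAAGGaaaca
Mef2a MEF2 core from 39 to 32 bases before the start, chr1:130392189-130392206, minus strand: actccTAAAAATAgcccc
On either strand, the GATA motif AGATAA was found in 2 member windows (Isl1 and Hand2; 11.6% of all windows), the NKX2-5 motif TNAAGTG in 1 (Esrrb; 11.5%) and the TEAD motif GGAATG in 1 (Esrrb; 14.2%). The T-box motif AGGTGTGA (1.1% of all windows) and the receptor motif AAGGTCA (4.61%) were in none of the 25. The windows of members were rich in G and C, with a median of 60.3% against 51.7% over all windows. A match describes the letters in a window and is not a bound site.

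No cardiac transcription factor passed the test across all genes. Of the 32 tested, 0 were higher and 0 lower after Cpeb4 siRNA at an adjusted p under 0.05 (edgeR), where 3.41% of all 11335 genes tested were called, 1.54% higher and 1.87% lower. At an unadjusted p under 0.05, 2 members (Tbx20 and Mef2d) were higher and 0 lower in edgeR. Over all genes tested 16.1% passed that mark, 7.33% higher and 8.76% lower. DESeq2 and limma-voom each called 1 member, Tbx20. The log2 fold changes were positive in 16 members and negative in 16, with a median of 0.02 against -0.0031 over all genes tested. The median size of a fold change, without its sign, was 0.17 on the log2 scale in members and 0.17 over all genes. In 19 of the 32 members the difference between the group means was smaller than the larger of the differences between replicates. The share of all genes tested for which this holds was not computed, so the count is not read as a trait of the members.

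**Figure D1:**
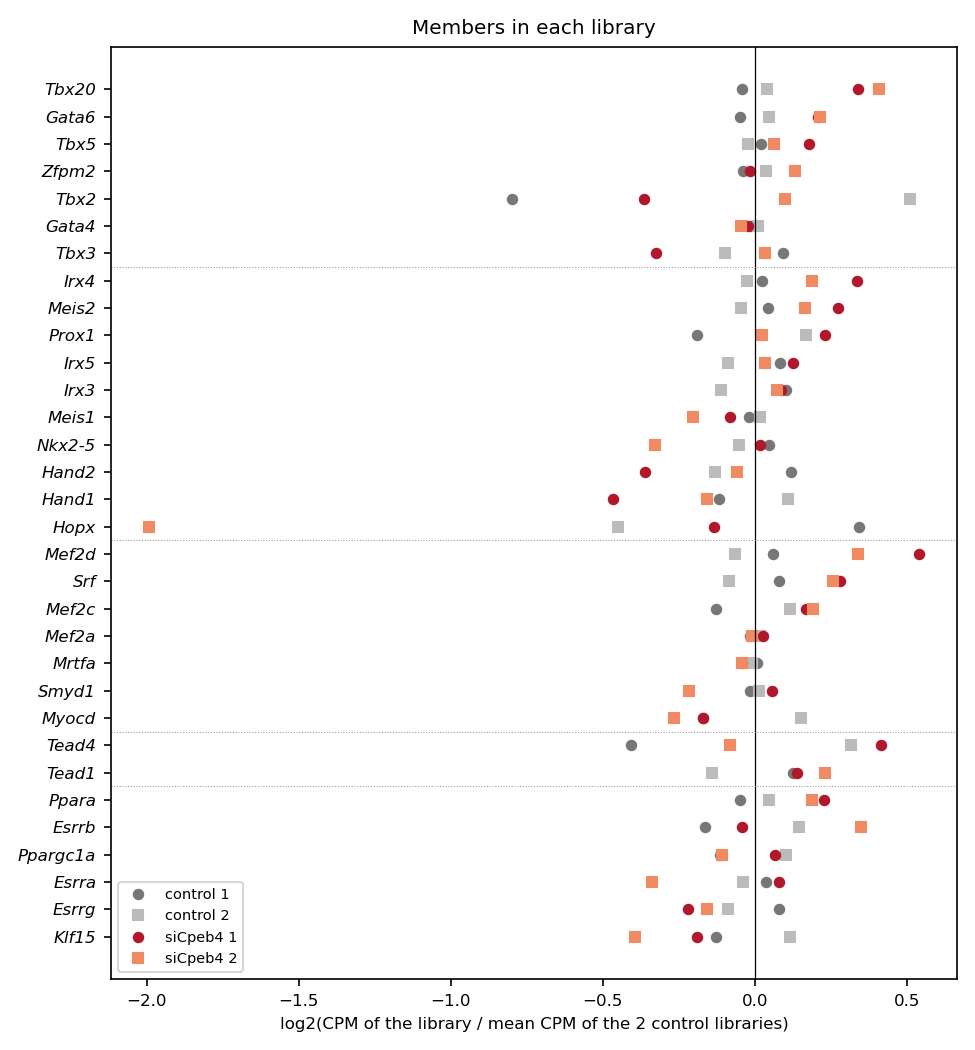
Each of the 32 tested members in each library, as log2 of its CPM over the mean of the 2 control libraries. Grey points are control and red or orange points siCpeb4 libraries, circles are replicate 1 and squares replicate 2, and dotted lines part the role groups; the libraries of the groups overlap in 15 members.

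Among the GATA and T-box factors, Tbx20 came closest to the threshold. Tbx20, a T-box factor needed for chamber growth and for the adult heart, had 781 and 827 CPM in the control and 1017 and 1067 CPM in the siCpeb4 libraries. Both siCpeb4 libraries lay above both controls. Means were 804 ± 32.5 and 1042 ± 35.2 CPM (SD, n = 2), and the log2 fold change was 0.34 ± 0.10 (SE; edgeR adjusted p = 0.0563). The 95% interval of that change ran from 1.10-fold to 1.46-fold. Tbx20 passed under some other processing. In edgeR its adjusted p was 0.0365 when scaled by library totals alone, 0.0489 with upper-quartile factors and 0.016 without the low-count filter. It was 0.0481 in DESeq2 and 0.0384 in limma-voom. Tbx20 did not pass in edgeR with RLE size factors (adjusted p = 0.0614), at least 30 counts in 2 libraries (0.0566) or a replicate block (0.12). Nor did it pass with any one library left out. Leaving out control replicate 1 raised its edgeR adjusted p to 0.48, with a log2 fold change of 0.29.

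Gata4, the zinc finger factor that pairs with NKX2-5 and TBX5, lay within a narrow range. It had 286 and 290.4 CPM in control and 284 and 279 CPM in siCpeb4 libraries, which gives a log2 fold change of -0.06 ± 0.10 with a 95% interval from -0.27 to 0.15 (adjusted p = 0.825 in edgeR). Its paralogue Gata6 had 97.9 and 104 CPM in control and 117 and 117 CPM in siCpeb4 libraries. The siCpeb4 libraries of Gata6 lay above both controls, and the log2 fold change was 0.18 ± 0.11 (edgeR adjusted p = 0.449). Zfpm2, the GATA cofactor FOG2, and Tbx5, which patterns the left heart and conduction system, had log2 fold changes of 0.04 and 0.09. The repressor Tbx3, which marks the conduction system, had 200 counts in all 4 libraries together and a log2 fold change of -0.17 ± 0.26. Tbx2, a repressor of the atrioventricular canal, had 8 and 12 counts in control and 9 and 15 in siCpeb4 libraries. Its log2 fold change was so close to 0 that the F statistic gave no standard error.

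The homeodomain and HAND group showed small differences in both directions. Irx4, a ventricle-restricted Iroquois factor, had 54.2 and 52.3 CPM in control and 67.3 and 60.7 CPM in siCpeb4 libraries. The groups did not overlap, and the log2 fold change was 0.23 ± 0.13 (edgeR adjusted p = 0.395). Its relatives Irx3 and Irx5, which shape ventricular conduction and repolarisation, had log2 fold changes of 0.04 and 0.04. Nkx2-5, the homeodomain factor at the centre of the cardiac network, had 126 and 117 CPM in control and 123 and 96.8 CPM in siCpeb4 libraries. The siCpeb4 replicates of Nkx2-5 lay on either side of one control library, and the log2 fold change was -0.18 ± 0.12. The homeodomain partners Meis1 and Meis2 had log2 fold changes of -0.17 ± 0.16 and 0.19 ± 0.12, with no overlap between groups for either. Prox1, a homeodomain regulator of muscle structure, had a log2 fold change of 0.11 ± 0.13. Hand1 and Hand2, basic helix-loop-helix factors of ventricle formation, had log2 fold changes of -0.31 ± 0.26 and -0.24 ± 0.21. Hopx, a small homeodomain protein that binds no DNA and restrains SRF, had 20 and 7 counts in control and 12 and 4 in siCpeb4 libraries. Its log2 fold change of -0.93 ± 0.56 rests on 43 counts in all and depended on single libraries. It was -2.06 without siCpeb4 replicate 1, -0.22 without siCpeb4 replicate 2 and -0.43 without control replicate 1. Isl1, a factor of heart progenitors, had 1 and 3 counts in control and 2 and 2 in siCpeb4 libraries and was not tested.

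Among the MADS box factors, the MEF2 paralogues did not share a direction. Mef2d, which drives stress-dependent remodelling of the adult heart, had 89.0 and 81.6 CPM in control and 124 and 108 CPM in siCpeb4 libraries. Both siCpeb4 libraries lay above both controls, and means were 85.3 ± 5.25 and 116 ± 11.3 CPM (SD, n = 2). The log2 fold change was 0.41 ± 0.12 and did not pass (edgeR adjusted p = 0.063). Mef2d passed in edgeR with upper-quartile factors (adjusted p = 0.05 after rounding), without the low-count filter (0.0309) and without siCpeb4 replicate 2 (0.0427). It did not in DESeq2 (adjusted p = 0.226), and without control replicate 2 the edgeR adjusted p was 0.309. Mef2a, whose promoter window holds the MEF2 core shown above, had 315 and 322 CPM in control and 325 and 317 CPM in siCpeb4 libraries. The groups overlapped, and its log2 fold change of -0.02 ± 0.10 had a 95% interval from -0.23 to 0.19. Mef2c, the paralogue of early heart development, had a log2 fold change of 0.16 ± 0.11 (adjusted p = 0.544, edgeR). No promoter window matched Mef2c, so it was not searched for the MEF2 core.

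SRF and its coactivators differed in sign. Srf, which encodes the factor that recognises CArG elements, had 83.7 and 74.8 CPM in control and 96.3 and 94.7 CPM in siCpeb4 libraries. The siCpeb4 libraries lay above both controls, and the log2 fold change was 0.23 ± 0.12 (edgeR adjusted p = 0.332). Myocd, the heart and smooth muscle coactivator myocardin, had 96.2 and 120.1 CPM in control and 96.1 and 90.0 CPM in siCpeb4 libraries. Control replicate 1 of Myocd was almost level with siCpeb4 replicate 1, and the log2 fold change was -0.24 ± 0.12 (edgeR adjusted p = 0.361). Mrtfa, the actin-sensing coactivator, had 37.9 and 37.4 CPM in control and 36.6 and 36.5 CPM in siCpeb4 libraries, a log2 fold change of -0.07 ± 0.14. The muscle methyltransferase Smyd1, needed for sarcomere assembly, had 467 and 477 CPM in control and 491 and 407 CPM in siCpeb4 libraries. The siCpeb4 libraries of Smyd1 lay on both sides of the controls, with a log2 fold change of -0.10 ± 0.11.

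**Figure D2:**
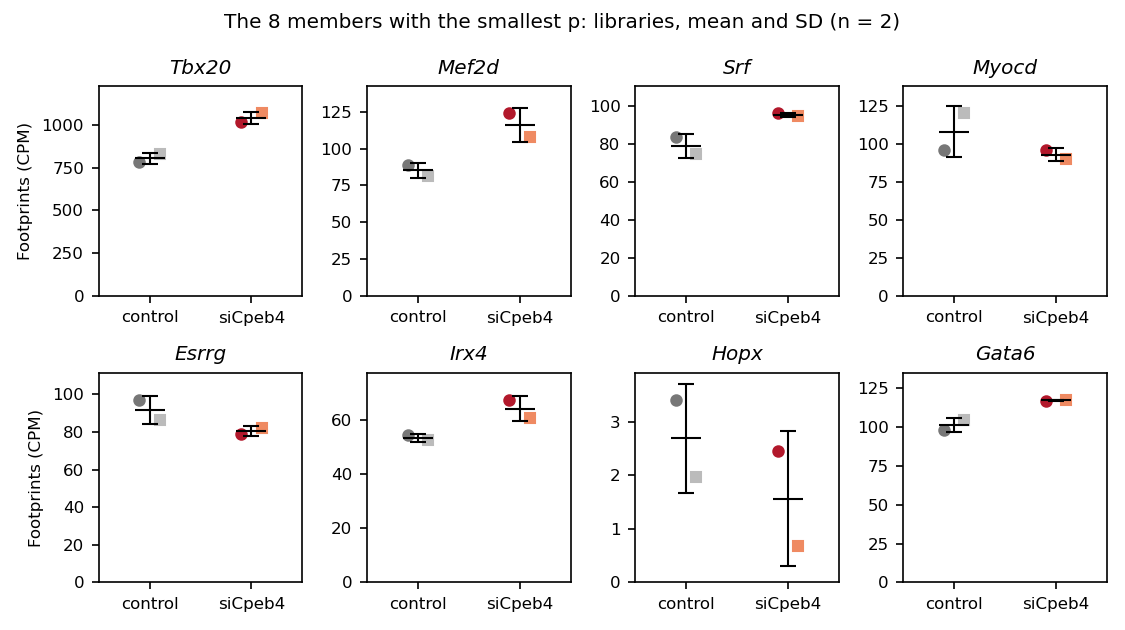
Footprint level in CPM of the 8 members with the smallest p, by library (circles replicate 1, squares replicate 2), with the group mean and SD (n = 2). In Tbx20, Mef2d, Srf, Irx4 and Gata6 both siCpeb4 libraries lie above both controls, in Esrrg and Myocd below, and in Hopx the groups overlap.

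TEAD factors and metabolic regulators did not pass either. Tead1, a DNA-binding partner of YAP in heart muscle, had 143 and 119 CPM in control and 144 and 154 CPM in siCpeb4 libraries. One siCpeb4 library of Tead1 was almost level with a control, and the log2 fold change was 0.15 ± 0.11. Its paralogue Tead4, with 90 counts in all, had a log2 fold change of 0.21 ± 0.38. Esrrg, an estrogen-related receptor that supports oxidative metabolism at birth, had 97.0 and 86.4 CPM in control and 78.7 and 82.2 CPM in siCpeb4 libraries. Its siCpeb4 libraries lay below both controls, and the log2 fold change was -0.22 ± 0.12 (edgeR adjusted p = 0.361). The related receptors Esrra and Esrrb had log2 fold changes of -0.15 ± 0.14 and 0.17 ± 0.31. The fatty acid receptor Ppara had 47.4 and 50.6 CPM in control and 57.5 and 55.8 CPM in siCpeb4 libraries, a log2 fold change of 0.18 ± 0.13. Ppargc1a, the mitochondrial coactivator PGC-1α, had 114 and 133 CPM in control and 129 and 115 CPM in siCpeb4 libraries. The groups overlapped, with a log2 fold change of -0.04 ± 0.12. Klf15, a repressor of hypertrophy that also controls amino acid metabolism, had a log2 fold change of -0.31 ± 0.19 (adjusted p = 0.463, edgeR).

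The intervals bound how large a difference between these libraries could have been missed, and they rest on the spread of these libraries alone. Tbx2, with 44 counts in all, had no interval. Its log2 fold change ran from -0.64 to 0.67 with 1 library left out. For 23 of the 31 members with an interval, the 95% interval lay within 1.5-fold in either direction, and for 30 it lay within 2-fold. The 8 with wider reach were Mef2d, whose upper bound was 1.57-fold, and the less covered genes Tbx3, Hopx, Hand1, Hand2, Tead4, Esrrb and Klf15, with 43 to 416 counts each. Standard errors of the members had a median of 0.13 on the log2 scale, against 0.17 over all genes tested.

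**Figure D3:**
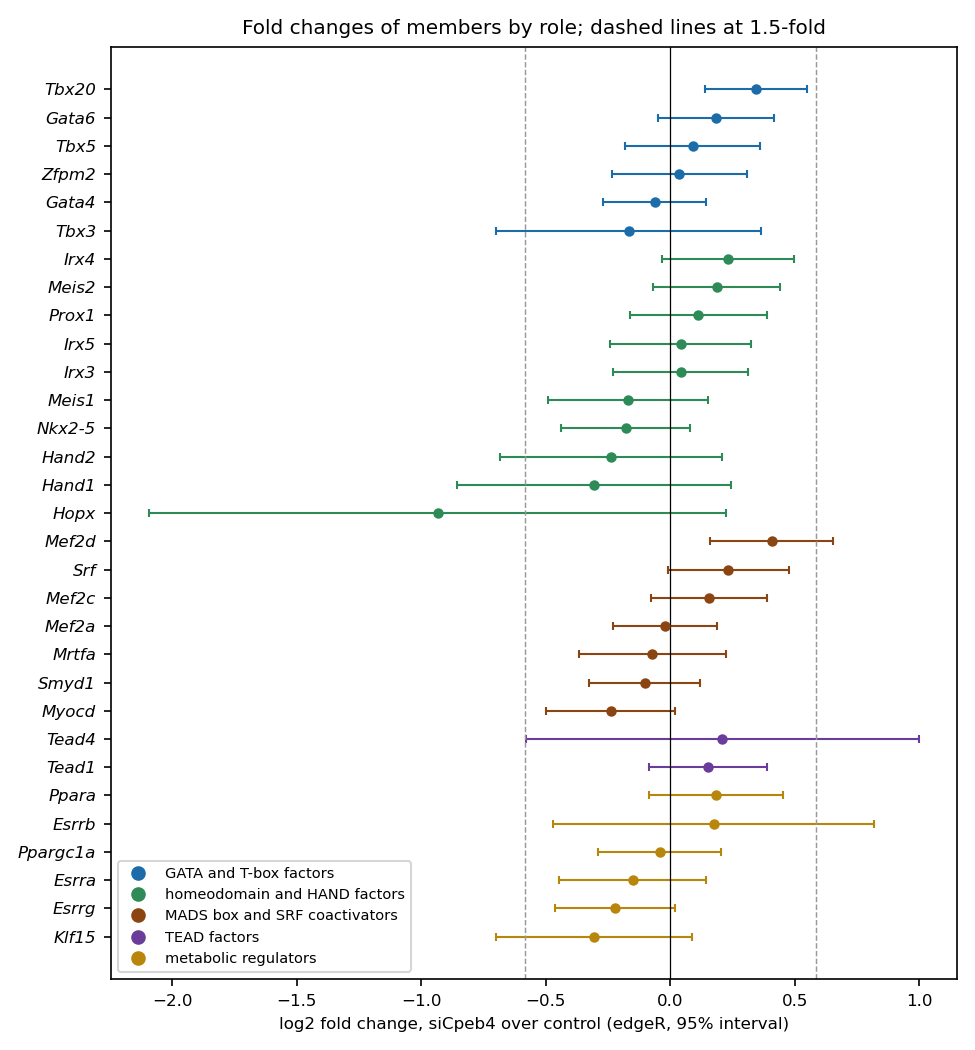
Log2 fold change of siCpeb4 over control with its 95% interval (edgeR) for the 31 members with an interval, coloured by role; dashed lines mark 1.5-fold. Intervals of Tbx20 and Mef2d lie above 0, and those of the other 29 members include 0.

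The order of the libraries was also read without a test. In 10 members both siCpeb4 libraries exceeded both controls, as in 26.5% of all genes tested, and in 7 both lay below, as in 19.5%. Together these were 17 of 32 members, against 46% of all genes tested. The member counts summed to 3493 and 3588 CPM in control and 3914 and 3775 CPM in siCpeb4 libraries, with no overlap. Without Tbx20 the sums were 2713 and 2761 CPM in control and 2897 and 2708 CPM in siCpeb4 libraries, which overlap. Tbx20 held 22.3% and 23.0% of the member counts in control and 26.0% and 28.3% in siCpeb4 libraries.

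Shares within a family compare members inside one library and do not depend on how libraries are scaled. A family here holds only listed members, so relatives such as Gata5 are left out. SRF and its coactivators were counted as a family, though SRF is not a paralogue of them. The shares mix genes of unequal length, so only their change between libraries is read. Gata6 made up 25.5% (95% interval 23.7 to 27.4%) and 26.4% (24.2 to 28.8%) of GATA4 plus GATA6 footprints in control. In siCpeb4 libraries it made up 29.2% (27.2 to 31.2%) and 29.6% (27.8 to 31.5%), above both controls. The interval of each siCpeb4 library overlapped that of control replicate 2, and that of siCpeb4 replicate 1 also overlapped that of control replicate 1. Mef2d made up 16.0% and 13.9% of MEF2 footprints in control and 19.5% and 17.5% in siCpeb4 libraries, and Mef2a 56.6% and 55.1% against 51.0% and 51.5%. The Mef2c share overlapped between groups. Srf made up 38.4% and 32.2% of the SRF, myocardin and MRTF-A footprints in control and 42.1% and 42.8% in siCpeb4 libraries, and Myocd 44.2% and 51.7% against 42.0% and 40.7%. The controls lay further apart from each other in these shares than the siCpeb4 libraries did. Meis2 made up 66.5% and 64.5% of MEIS footprints in control and 70.9% and 71.1% in siCpeb4 libraries. For Meis2 the interval of each control library overlapped that of each siCpeb4 library. For Srf and Myocd the interval of control replicate 1 overlapped those of both siCpeb4 libraries. The interval of siCpeb4 replicate 2 overlapped that of control replicate 1 for Mef2d and that of control replicate 2 for Mef2a. Of 22 shares in 8 families, 6 were higher and 7 lower in both siCpeb4 libraries than in both controls. The other 9 overlapped, among them all shares of the HAND and ERR families. The levels of 46% of all genes tested did not overlap. A level is not a share, and no such background was computed for shares, so the counts are not compared. Shares of a family sum to a fixed total, and in the GATA, MEIS and HAND pairs 1 share fixes the other. The intervals are exact binomial ones and cover counting error only, and with 2 libraries per group an exact permutation test cannot give a p below 0.333, so the shares were not tested.

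**Figure D4:**
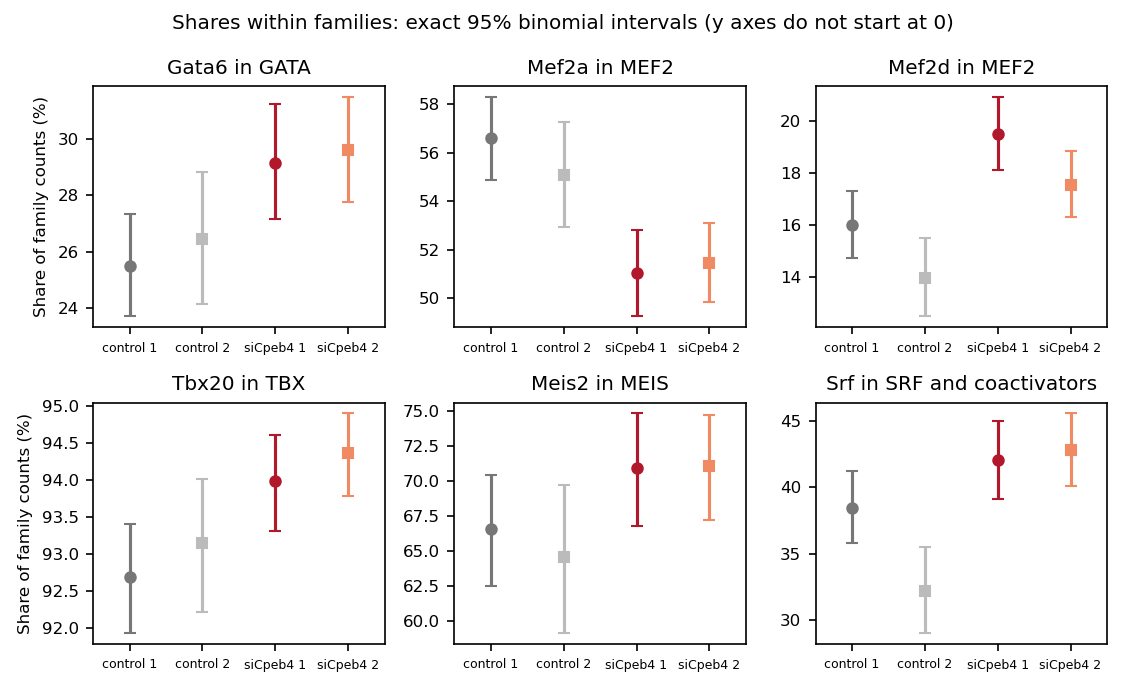
Share of a family's footprint counts held by 1 member in each library, in percent, with exact 95% binomial intervals; the y axes do not start at 0. The Mef2d share is 13.9 to 16.0% in control and 17.5 to 19.5% in siCpeb4 libraries, and the Gata6 share 25.5 to 26.4% and 29.2 to 29.6%. All shares drawn are among those that do not overlap between groups, and the 9 shares that overlap are not drawn.

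Target genes of these factors were read from lists drawn up from general knowledge of each factor. Of 20 contractile, conduction and natriuretic targets of GATA, NKX2-5, MEF2 and TBX5, 0 were called by edgeR, and at an unadjusted p under 0.05 there were 1 higher and 2 lower, against 7.33% and 8.76% of all genes tested. Gja5, the conduction connexin and a TBX5 target, had 28.8 and 24.2 CPM in control and 16.8 and 18.8 CPM in siCpeb4 libraries. Its siCpeb4 libraries lay below both controls, with a log2 fold change of -0.62 ± 0.18 that did not pass (edgeR adjusted p = 0.0688). Myh7, the slow myosin heavy chain, had a log2 fold change of -0.24 ± 0.10, the cardiac actin Actc1 one of 0.23 ± 0.10 and the ventricular light chain Myl2 one of 0.19 ± 0.10, none called. The list median was -0.10, against -0.0031 over all genes tested.

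SRF targets moved in both directions. Of 16 tested, 2 rose and 1 fell, where 1.54% of all genes tested rose and 1.87% fell. Myl9, a regulatory myosin light chain of non-sarcomeric contraction, rose from 1460 and 1535 CPM in control to 2315 and 1893 CPM in siCpeb4 libraries (log2 fold change 0.46 ± 0.11, edgeR adjusted p = 0.0179). The actin crosslinker Flna fell from 1711 and 1634 CPM to 1292 and 1330 CPM (-0.38 ± 0.10, edgeR adjusted p = 0.0297). The skeletal actin Acta1 had 1765 and 2213 CPM in control and 3530 and 3114 CPM in siCpeb4 libraries (0.71 ± 0.12, edgeR adjusted p = 0.000686). Actin genes have nearly identical coding sequences, so the split of footprints among them is uncertain, and it was not measured here. Acta1 passed with each library left out in turn (highest edgeR adjusted p = 0.031). The immediate early gene Egr1 had a log2 fold change of -0.45 ± 0.14 (adjusted p = 0.0847, edgeR). Myl9 did not pass without control replicate 1 (edgeR adjusted p = 0.178) or siCpeb4 replicate 1 (0.168), and the call of Flna ended when any one library was left out, with values from 0.0889 to 0.269.

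Of the 8 YAP and TEAD targets tested, 2 fell and 0 rose in edgeR, against 1.87% and 1.54% of all genes tested. At an unadjusted p under 0.05 there were 4 lower and 1 higher, against 8.76% and 7.33%. Ccn2, a matricellular growth factor, fell from 2537 and 2326 CPM in control to 1643 and 1786 CPM in siCpeb4 libraries (log2 fold change -0.53 ± 0.10, edgeR adjusted p = 0.00265). Its relative Ccn1 fell from 682 and 703 CPM to 480.4 and 588 CPM (-0.40 ± 0.11, edgeR adjusted p = 0.0356). Ajuba had a log2 fold change of -0.40 ± 0.13 and the cardiac ankyrin repeat protein Ankrd1 one of -0.26 ± 0.11, neither called. Fibroblast markers summed to 12143 CPM or more in control and 9794 CPM or less in siCpeb4 libraries, mostly from Col1a1 and Col3a1. Of the 9 tested, 7 had negative log2 fold changes, with a list median of -0.25. The part of fibroblast and epicardial markers in the values of Ccn1, Ccn2, Flna and Wwtr1, and of smooth muscle markers in that of Myl9, was not tested. Ccn2 did not pass without control replicate 1 (edgeR adjusted p = 0.0557). Ccn1 did not pass without control replicate 1 (0.114), control replicate 2 (0.205) or siCpeb4 replicate 1 (0.201), nor when scaled by library totals alone (0.0678, all edgeR).

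Of 13 tested targets of PPARα, the estrogen-related receptors and PGC-1α, 0 were called by edgeR. At an unadjusted p under 0.05 there were 2 higher and 4 lower, against 7.33% and 8.76% of all genes tested. These included the acyl-CoA synthetase Acsl1, with a positive log2 fold change (0.29 ± 0.11). The fatty acid binding protein Fabp3 (-0.29 ± 0.11) and the pyruvate dehydrogenase kinase Pdk4 (-0.33 ± 0.13) had negative values. The list median was -0.04.

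Among 38 tested partner factors and cofactors, 1 rose and 1 fell, which is near the 1.54% and 1.87% of all genes tested. Ppargc1b, the coactivator PGC-1β and paralogue of Ppargc1a, rose from 132 and 151 CPM in control to 206 and 188 CPM in siCpeb4 libraries (log2 fold change 0.46 ± 0.11, edgeR adjusted p = 0.0249). Wwtr1, which encodes the TEAD coactivator TAZ, fell from 141 and 141 CPM to 102 and 107 CPM (-0.46 ± 0.11, edgeR adjusted p = 0.0195). Klf13 (-0.73 ± 0.23), a GATA4 partner, and the homeodomain cofactor Pbx3 (0.53 ± 0.18) did not pass. In DESeq2 the adjusted p was 0.0581 for Ppargc1b and 0.0551 for Wwtr1. Leaving out any one library ended the call of Wwtr1 (edgeR adjusted p from 0.0559 to 0.132), and leaving out control replicate 1 (0.385) or siCpeb4 replicate 1 (0.101) that of Ppargc1b.

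**Figure D5:**
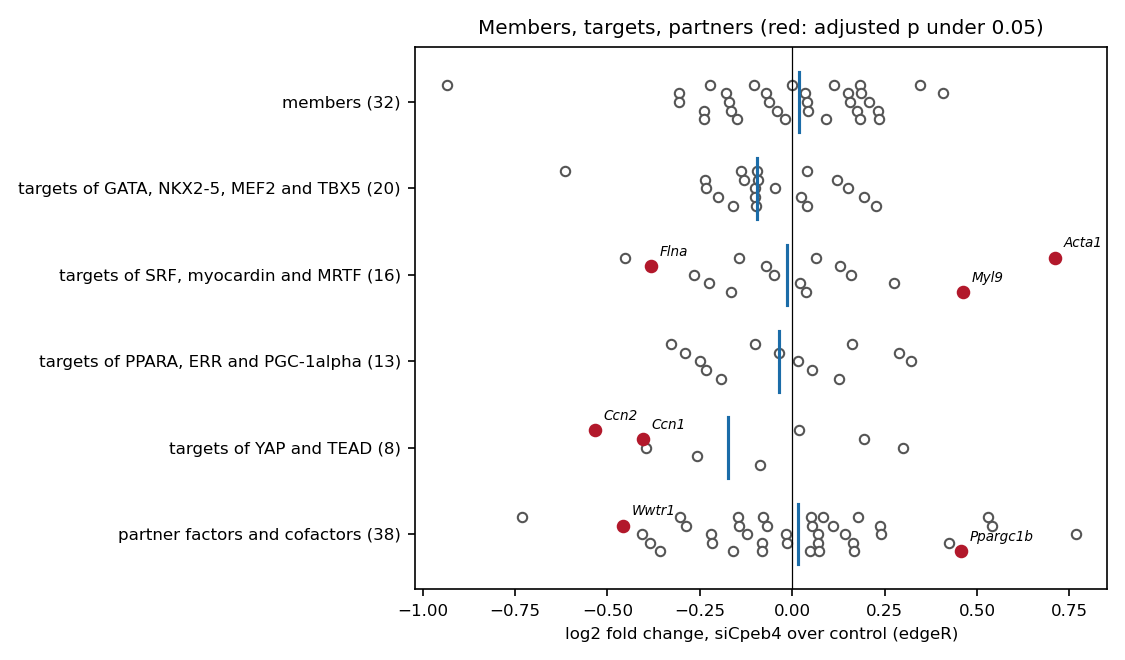
Log2 fold change of siCpeb4 over control (edgeR) for the 32 tested members and for the lists of their targets and partners, with the number tested in brackets; red points have an adjusted p under 0.05 and blue bars are medians. Red points are found among SRF targets, YAP and TEAD targets and partner factors, and none among the members.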

How the data were processed

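The authors deposited raw counts of footprints per Ensembl gene, 1 file per library, without normalisation. The tools named are HTSeq 0.12, STAR 2.7 and Bowtie2, on build Rnor_6.0, per the submitters' processing notes; roles and strand setting are not given in the sources used here. Per the file names, reads mapped uniquely and were 29 to 34 nt long, or 29 to 33 nt in siCpeb4 replicate 2. The 5 HTSeq summary rows were left out, and reads without a feature were 4.42 to 4.63% of each library. Matched RNA-seq was not used, so a footprint count reflects mRNA amount and translation together.

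CPM are counts over the library's total of gene counts. Groups were compared in edgeR 4.0.16 by its quasi-likelihood test (R 4.3.3, TMM, filterByExpr with a minimum count of 10, group as the only term, two-sided, Benjamini-Hochberg over 11335 genes). Standard errors come from the F statistic. Alternatives were other scalings, DESeq2 1.42.0, limma-voom 3.58.1, other filters, a replicate block, a threshold of 0.10, other denominators of CPM, and each library left out, where a lone library is taken to vary as the remaining pair does. The scripts were first checked on simulated counts. Members and lists were chosen with earlier results of these data known. Every member is described, and each target or partner list is named by its called genes and up to 4 smallest p, except that 1 gene is not reported here. Cd36, Ttn, Pecam1 and Itgam did not match a symbol and are not analysed here.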

Additional observations from a re-analysis of the deposited data

How the results depend on the processing

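Over all genes, DESeq2 called 71 higher and 108 lower, against 174 and 212 in edgeR. Without the low-count filter 352 were lower, and at a threshold of 0.10 there were 274 higher and 355 lower. With 1 library left out the counts lay between 79 and 138 higher and 133 and 186 lower. Among members, 1 was higher with library totals alone, in DESeq2 and in limma-voom, and 2 with upper-quartile factors, without the filter or at 0.10; with 1 library left out there were 0 to 1. No alternative called a member lower. The replicate numbers did not pair the libraries (correlation of deviations -0.11): with the replicate number as a block 177 genes were higher, 223 lower and 0 members called, and 1 SRF target was higher in place of 2. With crossed numbers, an alternative added after the data were seen, 201 genes were higher, 278 lower and 1 member higher. The members' median lay between -0.070 and 0.050 with 1 library left out. Of the 32 tested members, 21 kept their sign in every alternative that gave them a value. With 1 library left out, log2 fold changes ran from -0.027 to 0.10 for Zfpm2, -0.64 to 0.67 for Tbx2, -0.076 to 0.30 for Prox1, -0.042 to 0.15 for Irx3, -0.022 to 0.13 for Irx5 and -0.048 to 0.012 for Mef2a. They ran from -0.26 to 0.040 for Smyd1, -0.18 to 0.56 for Tead4, -0.38 to 0.062 for Esrra, -0.028 to 0.34 for Esrrb and -0.16 to 0.076 for Ppargc1a. Tbx2 was also 0.029 with library totals alone, 0.014 with upper-quartile factors and 0.11 in limma-voom, and Mef2a 0.0090 with library totals alone. The cause was not tested. For the lists, no filter gave 1 higher and 1 lower GATA, NKX2-5, MEF2 and TBX5 target, 2 lower SRF targets, 1 lower PPARα target and 2 lower partner factors. A threshold of 0.10 gave 1 lower, 2 lower, and 2 lower in the first, second and last of these. Library totals alone gave 1 lower YAP and TEAD target, and DESeq2 called 0 partner factors higher and 0 lower. With 1 library left out there were 0 to 1 lower GATA, NKX2-5, MEF2 and TBX5 targets, 1 to 2 higher and 0 to 1 lower SRF targets, 0 to 2 lower YAP and TEAD targets, and 0 to 1 higher and 0 lower partner factors. The depth limits Tbx2, Hopx, Tead4 and Isl1 most.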
